A study of Mus musculus with 120 samples.

Results

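The genes described here are 10 collagen-modifying enzymes and their helpers: the prolyl hydroxylases *P4ha1*, *P4ha2*, *P4ha3* and *P3h1*, the lysyl hydroxylases *Plod1* and *Plod2*, the cross-linking oxidases *Lox* and *Loxl2*, the collagen chaperone *Serpinh1* and the proline-synthesis enzyme *Pycr1*. They were taken by gene name from the 55487 genes that the count tables of both sequencing batches list, and each of the 10 was found in both tables and passed the filter on low counts in every comparison. They were chosen by their measured CPM in biopsies at 6 weeks of age against later ones, as earlier results of these data showed it, so that contrast is described without a test. Levels are CPM, the reads of a gene per 1000000 counts, scaled over all 120 samples.

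Procollagen chains are modified in the endoplasmic reticulum before they leave the cell. The prolyl 4-hydroxylases make the 4-hydroxyproline that keeps the triple helix stable, lysyl hydroxylases prepare lysines for sugars and cross-links, and the chaperone HSP47 (*Serpinh1*) holds the folded helix until it reaches the Golgi. Outside the cell, lysyl oxidases join collagen molecules into fibers, and around an implanted material fibroblasts are known to lay down such a matrix.

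The immunological niche (IN) is a porous polycaprolactone scaffold placed under the skin of female mice at 4 weeks of age, which cells then populate. One scaffold was removed at each biopsy, from 6 weeks of age on, and a new one was put in its place. NOR/LtJ mice, the nondiabetic control, carry the same diabetogenic H2g7 haplotype as NOD/ShiLtJ mice. NOD mice were divided into progressors, which became hyperglycemic, and nonprogressors, which did not; no further treatment or allele is given. Bulk RNA of each biopsied scaffold was sequenced, 23 samples from 5 NOR mice, 39 from 11 nonprogressors and 58 from 10 progressors. NOR samples are all in batch 1. NOR mice, and nonprogressor mice 1 to 4 in batch 1, were biopsied at ages 6, 10, 14, 18 and 22 weeks. Other nonprogressors were sampled at 6 and 14 weeks in batch 2, and 6 batch 1 samples are labelled only by days after implantation. Progressors were sampled at 6 weeks, at 5, 3 and 1 weeks before onset and at onset in both batches, and at 7 weeks before onset in batch 2. The paper describes 4 scaffolds per mouse, replaced weekly in rotation, each in place for at least 2 weeks. Scaffolds taken at 6 weeks of age had been in place since the operation at 4 weeks of age. By that rotation, those taken from 10 weeks of age on would be replacements. The labels do not give the time in place, so the age of the mouse and the history of the scaffold cannot be told apart. In bulk samples, fewer cells of a type and less RNA per cell cannot be told apart either.

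Totals per sample ran from 4722396 to 56185434 counts. Collagen and fibroblast markers were present in every sample (*Col1a1* at 2720 to 37111 CPM, *Pdgfra* at 57.6 to 407 CPM), as was the macrophage marker *Cd68* (402 to 1712 CPM). In 5 libraries a single structural RNA took a large share of the counts: 85.7% on the ribosomal RNA gene *CT010467.1* in NOR mouse 5 at 18 weeks, and 17.5% to 30.5% on the 7SL gene *Rn7s2* in nonprogressor mice 2, 3 and 4 at 22 weeks and progressor mouse 4 at 3 weeks before onset. The top gene of the other 115 libraries took 1.93% to 14%. Counts of members that include these libraries were also made without them.

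The sequence just before the transcription start is shown for 4 members. *Serpinh1*, *P3h1* and *Pycr1*, like *Plod1* and *Plod2*, had positive log2 differences (6 weeks minus later) in all 5 sets of samples. Some were smaller than their standard error: *P3h1* in NOR mice (0.09 ± 0.14), and *Plod1* (0.03 ± 0.16) and *Plod2* (0.06 ± 0.32) in batch 1 nonprogressors. The difference of *P4ha1*, the other member shown, had opposite signs in the batches. The 250 bases that end at the RefSeq gene start (GRCm38.p6) were *P3h1* chr4:119232665-119232914 (plus strand), *Serpinh1* chr7:99353240-99353489 (minus strand), *P4ha1* chr10:59323046-59323295 (plus strand) and *Pycr1* chr11:120643749-120643998 (minus strand). They are printed in the direction of transcription, with the searched motifs in capitals on either strand: the GC box GGGCGG, the CCAAT box, the hypoxia response cores ACGTG and GCGTG, and the amino acid response element TGATGNAA.

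P3h1: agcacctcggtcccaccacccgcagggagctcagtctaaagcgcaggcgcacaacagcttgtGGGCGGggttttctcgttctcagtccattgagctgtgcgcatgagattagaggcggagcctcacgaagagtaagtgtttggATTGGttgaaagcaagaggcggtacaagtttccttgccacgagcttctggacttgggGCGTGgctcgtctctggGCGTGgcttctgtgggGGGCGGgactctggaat

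Serpinh1: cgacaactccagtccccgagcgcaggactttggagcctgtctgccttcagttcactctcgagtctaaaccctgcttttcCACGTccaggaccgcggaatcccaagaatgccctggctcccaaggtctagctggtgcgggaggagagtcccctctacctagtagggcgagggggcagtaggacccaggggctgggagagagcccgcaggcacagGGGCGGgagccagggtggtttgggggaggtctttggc

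P4ha1: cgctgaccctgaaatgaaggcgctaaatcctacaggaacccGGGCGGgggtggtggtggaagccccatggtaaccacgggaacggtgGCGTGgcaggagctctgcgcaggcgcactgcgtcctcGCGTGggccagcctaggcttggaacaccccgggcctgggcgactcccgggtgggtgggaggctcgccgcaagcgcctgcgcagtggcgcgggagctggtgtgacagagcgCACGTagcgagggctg

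Pycr1: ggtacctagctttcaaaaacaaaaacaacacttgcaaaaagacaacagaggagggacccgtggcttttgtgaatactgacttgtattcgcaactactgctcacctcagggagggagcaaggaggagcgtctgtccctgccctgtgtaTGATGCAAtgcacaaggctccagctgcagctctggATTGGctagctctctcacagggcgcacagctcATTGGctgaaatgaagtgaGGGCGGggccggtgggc

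RefSeq windows were given for 7 of the 10 members (those of *Plod2*, *Lox* and *Loxl2* were not used here). A GC box stood in all 7, against 32.7% of 32851 promoter windows. ACGTG stood in 4 of 7 (*P3h1*, *P4ha1*, *P4ha2* and *Serpinh1*; 16.6% of all windows) and GCGTG in 4 of 7 (*P3h1*, *P4ha1*, *P4ha2* and *Plod1*; 28.2%). In *P4ha1*, GCGTG lay 163 and 126 bases before the start and an ACGTG on the other strand lay 16 bases before it. *Serpinh1* had 1 ACGTG, 171 bases before the start. *Pycr1* alone held TGATGNAA, 103 bases before the start (3.45% of all windows), and 2 CCAAT boxes on the other strand. CCAAT was found in *P3h1* and *Pycr1* (33.8%) and TATAAA in *Plod1* (12.4%). Motif counts of members include every window RefSeq lists for a gene, while the percentages are of single windows. The ACGTG of *P3h1* lay in another of its windows, not in the one printed above. A match is a description of the letters only.

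Corrected for length (CPM per kilobase of merged exons), *Serpinh1* had the highest level of the 10, with a median of 132.6 CPM per kilobase over 120 samples (41.7 to 332). *Lox* (95.4), *Loxl2* (61.2) and *P4ha1* (48.5) followed. *Plod1* (17.5), *P3h1* (15.5), *Plod2* (10.2) and *P4ha2* (7.35) formed a lower tier, and *P4ha3* (2.32) and *Pycr1* (2.13) were lowest. The steps from *P4ha1* to *Plod1* and from *P4ha2* to *P4ha3* held in 120 of 120 samples. Neighbors elsewhere in the order overlapped: *Serpinh1* exceeded *Lox* in 89 samples, *Loxl2* exceeded *P4ha1* in 84, *P3h1* exceeded *Plod2* in 84 and *P4ha3* exceeded *Pycr1* in 67. Among the 4-hydroxylases, which share a catalytic role and differ in the alpha subunit, *P4ha1* was thus the most abundant transcript in every sample.

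At 6 weeks of age, most members were higher than later in batch 2 NOD mice and some were in batch 1 progressors. The median difference of the group was small in NOR mice and batch 1 nonprogressors. In batch 1 nonprogressors the members went in both directions, from a log2 difference of -0.54 (*Lox*) to 0.64 (*Serpinh1*). The number of members higher by 1.5-fold or more was 0 of 10 in NOR mice (5.48% of all genes), 1 in batch 1 nonprogressors (13.7%), 4 in batch 1 progressors (13.4%), and 9 in batch 2 nonprogressors (10.1%) and batch 2 progressors (10.9%). Since this contrast chose the members, nothing is read from those shares. The median log2 difference of the 10 (6 weeks minus later) was 0.09 in NOR mice, 0.05 and 1.09 in nonprogressors of batches 1 and 2, and 0.47 and 1.03 in progressors of batches 1 and 2, with the median of all genes between -0.03 and 0.01. Each set is a separate fit within its batch, and later means 10 to 22 weeks of age or, in progressors, the weeks up to onset.

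**Figure D1:**
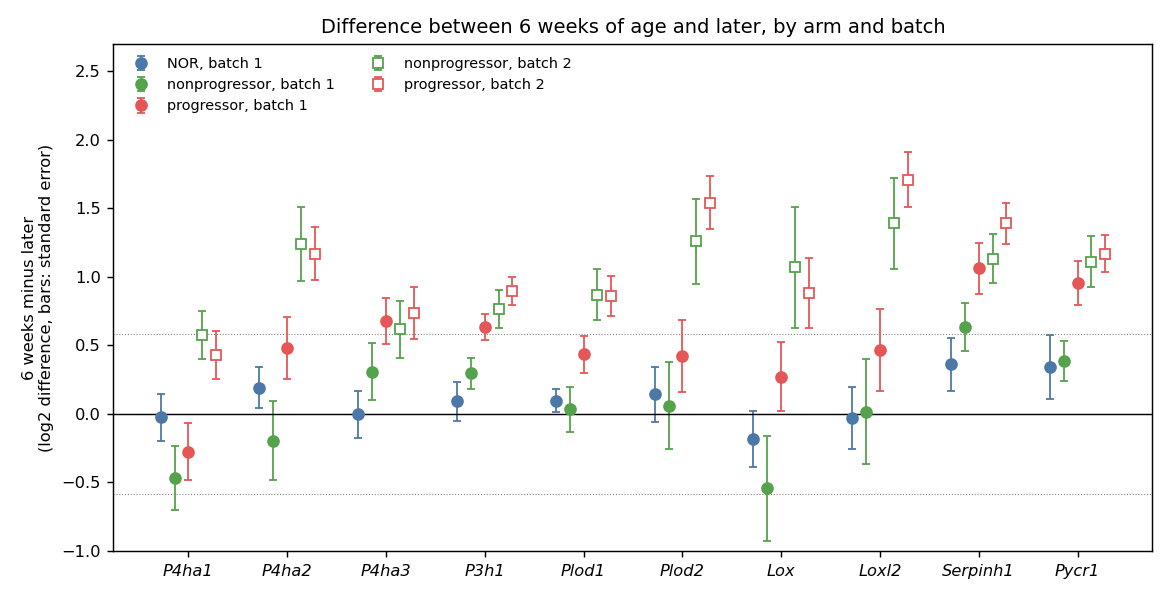
Log2 difference between 6 weeks of age and later (y axis) for each member (x axis) in the 5 sets of samples, with standard errors as bars. Circles are batch 1 and open squares batch 2, and dotted lines mark 1.5-fold. *Serpinh1*, *Pycr1*, *P3h1*, *Plod1* and *Plod2* are above 0 in all 5 sets, and *P4ha1* is below 0 in the 3 sets of batch 1 and above 0 in batch 2.

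*Serpinh1*, the collagen chaperone, was higher at 6 weeks in each of the 5 sets. At 6 weeks its level was 489, 458, 384 and 373 CPM in the 4 NOR samples, 524, 437, 394 and 556 CPM in batch 1 nonprogressors and 660, 667, 562, 591 and 419 CPM in batch 1 progressors. In batch 2 it was 420 to 792 CPM (median 648) in 7 nonprogressors and 755, 614, 650, 812 and 698 CPM in 5 progressors. Later medians lay close together, from 281 to 316 CPM in the 5 sets. Every 6-week value exceeded every later one in both batch 2 sets (later highest 398 and 504 CPM) whereas the groups overlapped in batch 1. The log2 differences were 0.36 ± 0.19 (SE) in NOR mice, 0.64 ± 0.18 and 1.13 ± 0.18 in nonprogressors of batches 1 and 2, and 1.06 ± 0.18 and 1.39 ± 0.15 in progressors of batches 1 and 2. Within single mice, *Serpinh1* was higher at 6 weeks than in the mean of the later biopsies of the mouse in 24 of 24.

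*Pycr1*, which makes proline from pyrroline-5-carboxylate in mitochondria, had the same sign in all 5 sets. Its 6-week level was 9.57, 9.34, 9.54 and 9.65 CPM in NOR mice, 13.2, 9.53, 9.28 and 11.7 CPM in batch 1 nonprogressors, and 13.9, 17.7, 11.0, 16.5 and 11.0 CPM in batch 1 progressors. In batch 2 it was 13 to 24.7 CPM (median 17.1) in nonprogressors and 22.3, 18.4, 17.6, 20.95 and 17.6 CPM in progressors. Progressors of both batches had all 6-week values above all later ones (highest later values 10.7 and 14.2 CPM), and in 23 of 24 mice *Pycr1* was higher at 6 weeks. The log2 differences were 0.34 ± 0.23, 0.38 ± 0.15 and 1.11 ± 0.19 in NOR mice and nonprogressors of batches 1 and 2, and 0.96 ± 0.16 and 1.17 ± 0.13 in progressors of batches 1 and 2. Its later NOR values include a 0 in the library of mouse 5 at 18 weeks, where 3 counts would be 2.93 CPM.

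**Figure D2:**
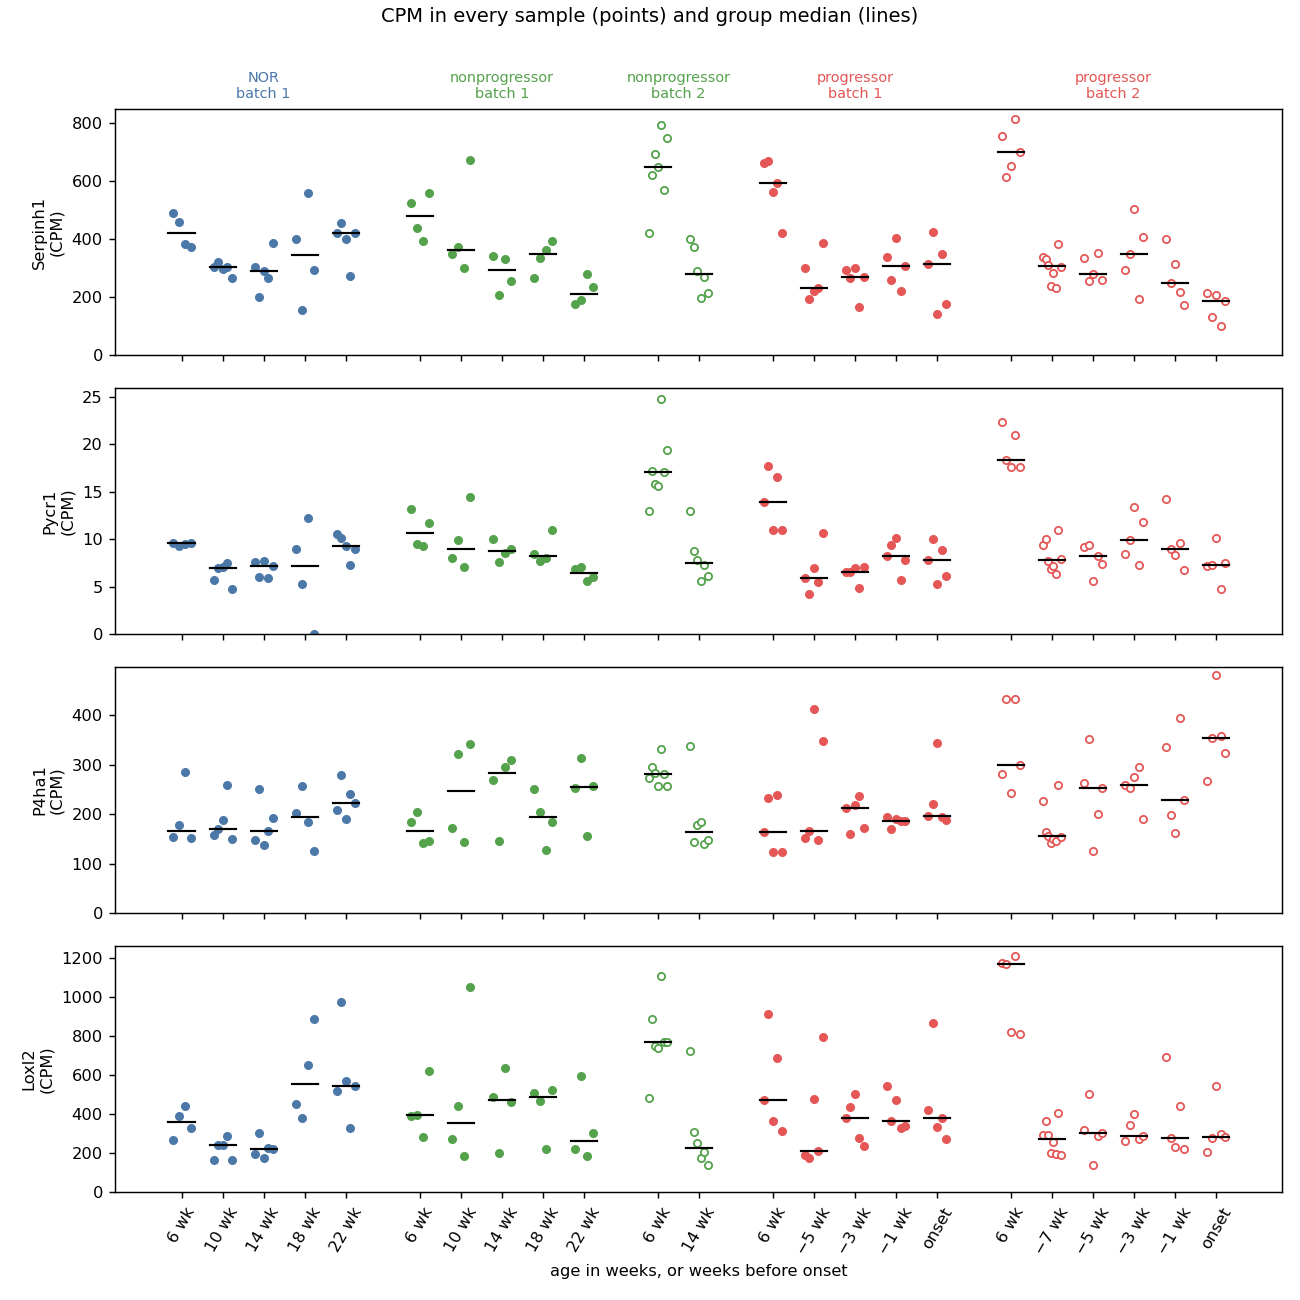
CPM of *Serpinh1*, *Pycr1*, *P4ha1* and *Loxl2* (y axes, linear) in every age- or onset-labelled sample (points) with group medians (lines), by arm, batch and time (x axis). *Serpinh1* and *Pycr1* stand highest at 6 weeks in batch 2 and in batch 1 progressors, *P4ha1* at 6 weeks has a median above the later one in batch 2 and below it in batch 1, and *Loxl2* in NOR mice is higher at 18 and 22 weeks than at 10 and 14 weeks.

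*P3h1* hydroxylates single prolines at the 3 position in a complex with *Crtap* and cyclophilin B. Its 6-week levels were 83.7, 74.8, 66.8 and 77.7 CPM in NOR mice, where the later median was 65.3 CPM and the groups overlapped. In batch 2 progressors they were 83, 76.8, 68.7, 75.2 and 71.6 CPM against 29.1 to 59.2 CPM later (median 39.4), and batch 2 nonprogressors had 54.4 to 86 CPM against 32.1 to 54.1 CPM, with no overlap in either. The log2 difference was 0.09 ± 0.14 in NOR mice and 0.30 ± 0.11, 0.77 ± 0.14, 0.63 ± 0.09 and 0.90 ± 0.10 in nonprogressors and progressors of batches 1 and 2. The highest later NOR value, 155.5 CPM, is that of mouse 5 at 18 weeks. *P3h1* was higher at 6 weeks in 22 of 24 mice.

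The 4-hydroxylase subunits did not move alike. *P4ha1* was lower at 6 weeks in the 3 batch 1 sets, by log2 differences of -0.03 ± 0.17 in NOR mice, -0.47 ± 0.23 in nonprogressors and -0.28 ± 0.21 in progressors, and higher in batch 2 (0.58 ± 0.17 and 0.43 ± 0.18). In batch 2 progressors the later times were not alike: at onset *P4ha1* was at 267 to 481 CPM (median 353), above the 6-week median of 300.2 CPM (244 to 433 CPM), and the medians at the other later times were 155 to 258 CPM. In batch 1 nonprogressors its levels were 185, 204, 142 and 147 CPM at 6 weeks against 129 to 341 CPM later (median 253), so the groups overlapped. In batch 2 nonprogressors they were 256 to 331 CPM at 6 weeks (median 282), and 338, 144, 179, 184, 140 and 148 CPM in mice 5 to 10 at 14 weeks, where mouse 5 alone was above the 6-week range. Only 13 of 24 mice had higher *P4ha1* at 6 weeks. *P4ha2* differed by -0.20 to 0.48 in batch 1 and by 1.24 ± 0.27 and 1.17 ± 0.19 in nonprogressors and progressors of batch 2. *P4ha3*, the scarcest subunit, differed by 0.31 ± 0.21, 0.62 ± 0.21, 0.68 ± 0.17 and 0.74 ± 0.19 in NOD nonprogressors and progressors of batches 1 and 2, and by -0.00 ± 0.17 in NOR mice.

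The lysyl oxidases and hydroxylases, like every other member, had larger differences in batch 2 than in batch 1 in both NOD arms, a gap that was not tested. *Loxl2*, which cross-links fibrillar and basement membrane collagens, was at 1172, 1167, 818, 1208 and 808 CPM at 6 weeks in batch 2 progressors against 138 to 694 CPM later (median 287), with no overlap. Batch 1 progressors had 471, 912, 367, 687 and 312 CPM at 6 weeks and 173 to 866 CPM later (median 372), so that all but the 912 CPM overlapped with later values. The log2 differences were -0.03 ± 0.22 in NOR mice, 0.02 ± 0.38 and 1.39 ± 0.33 in nonprogressors, and 0.47 ± 0.30 and 1.71 ± 0.20 in progressors of batches 1 and 2.

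*Plod2*, which hydroxylates lysines of the collagen telopeptides, was at 170, 203, 133, 263 and 171 CPM at 6 weeks in batch 2 progressors and at 29.6 to 124 CPM later (median 59.2), again without overlap. Its log2 differences were 1.54 ± 0.19 there and 1.26 ± 0.31 in batch 2 nonprogressors, but 0.06 to 0.42 in the batch 1 sets. *Plod1*, which acts on lysines of the helix, differed by 0.10 ± 0.09 in NOR mice, 0.03 ± 0.16 and 0.87 ± 0.18 in nonprogressors and 0.43 ± 0.14 and 0.86 ± 0.15 in progressors of batches 1 and 2. *Lox*, the founding lysyl oxidase, was lower at 6 weeks in NOR mice (-0.18 ± 0.20) and batch 1 nonprogressors (-0.54 ± 0.38) and higher in batch 1 progressors (0.27 ± 0.25) and in batch 2 (1.07 ± 0.44 and 0.88 ± 0.26). In batch 2 nonprogressors *Lox* was 682 to 1262 CPM at 6 weeks, against 1327, 224, 327, 297, 245 and 119 CPM in mice 5 to 10 at 14 weeks, where mouse 5 again stood above the 6-week range.

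Counted over all sets, every 6-week value lay above every later value for 0 members in NOR mice (0.0204% of all genes), 0 in batch 1 nonprogressors (0.583%), 1 in batch 1 progressors (*Pycr1*; 1.12%), 2 in batch 2 nonprogressors (*P3h1* and *Serpinh1*; 5.94%) and 5 in batch 2 progressors (*P3h1*, *Plod2*, *Loxl2*, *Serpinh1* and *Pycr1*; 2.21%).

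Other genes of the pathway were taken from 3 lists, also chosen with earlier results known. Of 33 other collagen-modifying and collagen-secretion genes that passed the filter, 0 were higher by 1.5-fold at 6 weeks in NOR mice, 7 and 20 in nonprogressors and 15 and 22 in progressors of batches 1 and 2. Averaged over the 5 sets, the secreted collagen-binding protein *Sparc* (0.99), the procollagen-processing protease *Tll1* (0.98) and the collagen IV cross-linker *Pxdn* (0.97) had the largest log2 differences. The hydroxylysine galactosyltransferase *Colgalt1* (-0.11), *Tmem38b* (-0.08) and *P3h2* (-0.03) were the lowest. Of 11 collagen chains, the substrates of these enzymes, 0, 4, 8, 10 and 8 were higher by 1.5-fold in NOR mice, nonprogressors of batches 1 and 2 and progressors of batches 1 and 2, led by *Col3a1* (mean 1.15), *Col5a1* (0.92) and *Col1a2* (0.89). Without the 7SL-rich libraries the count in batch 1 nonprogressors was 9 of 11.

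Set against *Col1a1*, a chain of type I collagen, *P4ha1* had the smaller log2 difference in all 5 sets (*P4ha1* minus *Col1a1* -1.32 to -0.29). The same was so for *P3h1*, *P4ha2*, *P4ha3*, *Plod1* and *Lox*, while *Serpinh1* minus *Col1a1* was -0.16 to 0.22. Proline metabolism did not move as a list, with median log2 differences of -0.02, 0.09, -0.02, -0.01 and -0.02 over 8 genes. The proline-synthesis enzyme *Aldh18a1* averaged 0.54 and *Oat* 0.33, whereas the ornithine-producing arginase *Arg1* averaged -2.35 (range -4.19 to -0.64) and the proline-degrading *Prodh* -0.53.

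Cell type and state lists moved beside the members. All 10 fibroblast markers were higher at 6 weeks in each of the 4 NOD sets, with medians of 0.66 and 1.12 in nonprogressors and 0.86 and 1.29 in progressors of batches 1 and 2, against -0.08 in NOR mice. Their summed level in batch 2 progressors was 1709 to 3704 CPM at 6 weeks and 503 to 2341 CPM later. Of 12 hypoxia response genes, 4 were higher at 6 weeks in NOR mice, 0 in batch 1 nonprogressors (median -0.94) and 2 in batch 1 progressors (-0.44). All 12 were higher in both batch 2 sets (0.63 and 0.50). *P4ha1* had the same signs in the 4 NOD sets, but 7 and 9 of the 10 members were positive in nonprogressors and progressors of batch 1. The summed hypoxia genes were at 1220 to 1610 CPM at 6 weeks and 1109 to 4816 CPM later in batch 1 nonprogressors. In batch 2 progressors they were at 1561 to 3517 CPM and 751 to 4206 CPM.

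Proliferation genes were higher at 6 weeks in all sets (medians 0.44 to 0.95). Adipocyte and skeletal muscle markers differed in sign between batches, with medians of 1.12 to 2.15 in the 3 batch 1 sets and -5.22 to -2.70 in batch 2. In batch 2 nonprogressors the summed level of 8 muscle genes was 2.97 to 431 CPM at 6 weeks (median 12.5) and 9.73 to 5903 CPM at 14 weeks (median 3112), and in batch 1 nonprogressors it was 1440 to 10142 CPM and 30.3 to 12777 CPM. Of the markers that lead these lists, *Pdgfra*, *Adgre1* and *Acta1* had counts in all 120 samples and *Adipoq* in all but 1. The 8 macrophage genes differed by medians of -0.28 to 0.24. The part of these cell types, and of the hypoxia and proliferation genes, in the 6-week differences was not tested.

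NOR and NOD mice were compared in batch 1 with the biopsies of each mouse summed, a comparison that the choice of members did not use. *Plod1* was the only one of the 10 past the threshold (8.89% of 23727 genes were). Its level per mouse was 152, 168, 164, 155 and 139 CPM in NOR mice 1, 2, 4, 5 and 3. It was 105, 120, 96.6 and 137 CPM in nonprogressors 1 to 4 and 107, 114, 114, 96.9 and 119 CPM in progressors 1 to 5. All 9 NOD mice were below all 5 NOR mice, which was so for 1 of 10 members, while 4.89% of genes did not overlap in either direction. The log2 difference (NOD minus NOR) was -0.48 ± 0.07 (SE; 95% interval -0.63 to -0.34; adjusted p = 0.000538, edgeR quasi-likelihood test). With the 6-week samples alone it was -0.37 (adjusted p = 0.139 by edgeR), and in the other alternatives the adjusted p was 1.53e-08 to 0.0274.

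The other 9 members differed by -0.24 (*P4ha2*) to 0.29 (*Loxl2*), with adjusted p from 0.238 to 0.936 by edgeR. *Plod1* lies on chromosome 4 at 147909753 to 147936767 (GRCm38, minus strand). Of the 43 genes tested within 1 Mb of it, 27 (62.8%) passed the same threshold, 14 higher and 13 lower in NOD mice, and within 5 Mb 62 of 141 (44%) did. Around the other members 0% to 20.5% of neighbors passed. *P3h1*, on the same chromosome at 119232915, differed by -0.01 ± 0.05.

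Of the other pathway genes, *Sparc* (0.39, adjusted p = 0.043) and the proline-degrading *Aldh4a1* (0.73, adjusted p = 0.000136) were higher in NOD mice by edgeR. Summed epidermis markers were 0.347 to 15.6 CPM in NOR samples and 0.803 to 579 CPM in NOD samples, and hair follicle markers 1.30 to 31.3 CPM and 1.19 to 5007 CPM. All 8 genes of each list had positive differences (medians 3.98 and 7.73, against -0.00148 for all genes), with 0 past the threshold. After 6 weeks, median sums in NOR mice, nonprogressors and progressors of batch 1 lay closer. They were 0.809, 2.12 and 4.30 CPM for epidermis and 3.08, 3.97 and 5.96 CPM for hair follicle. The keratins *Krt5* and *Krt25*, which mark these tissues, had no count in 23 and 20 of the 120 samples. Fibroblast markers differed by a median of -0.07. The part of these cell types in the *Plod1* difference was not tested.

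**Figure D3:**
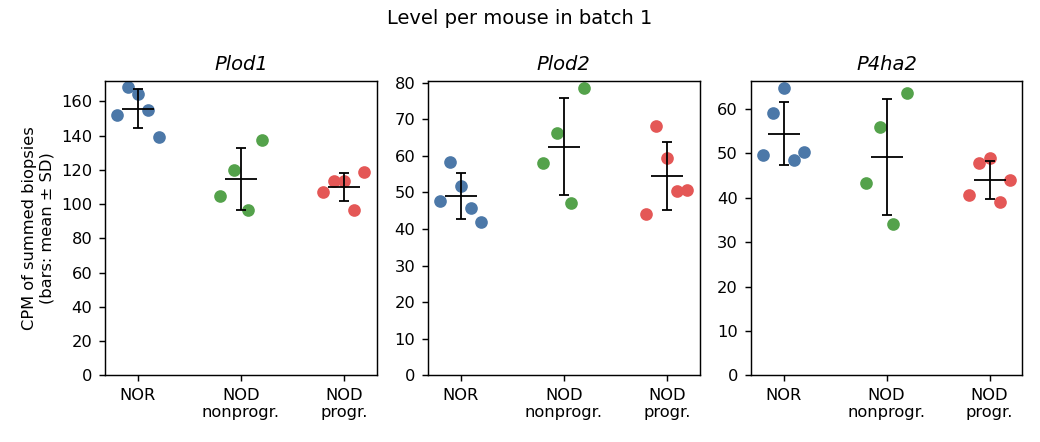
CPM of *Plod1*, *Plod2* and *P4ha2* (y axes) in each batch 1 mouse after summing its biopsies (points), with mean and SD as bars, for NOR mice, NOD nonprogressors and NOD progressors. NOR mice lie at 139 to 168 CPM for *Plod1*, above all NOD mice at 96.6 to 137 CPM, while the groups overlap for *Plod2* and *P4ha2*.

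Progressors and nonprogressors at 6 weeks were compared to ask whether the members differ before disease. No member passed the threshold (0 of 19082 genes did, 0%, with edgeR and a batch term) and DESeq2 called 0 members, also within each batch by edgeR. All 10 differences (progressors minus nonprogressors) were positive, 0.07 for *P4ha3* to 0.39 for *Loxl2*, against 50% of all genes, with adjusted p from 0.891 to 0.937 by edgeR. The 6-week samples were part of the contrast that chose the members, and the members are measured in the same samples. Nothing is therefore read from the shared sign. At an unadjusted p under 0.05 there were 4 members (*P3h1*, *Plod1*, *Loxl2* and *Pycr1*; 5.16% of genes). *Loxl2* had 285, 389, 397 and 620 CPM in batch 1 nonprogressors and 312, 367, 471, 687 and 912 CPM in batch 1 progressors, and in batch 2 481 to 1109 CPM (median 768) and 808 to 1208 CPM. The arms overlapped in both batches. The 95% interval of the *Loxl2* difference, 0.04 to 0.74, leaves room for a 1.5-fold change.

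The 12 hypoxia genes were also all positive in that comparison (median 0.21), as were 30 of 33 other collagen-modifying genes (median 0.13). After 6 weeks, batch 1 progressors (5 weeks before onset to onset) were compared with batch 1 nonprogressors (10 to 22 weeks). The differences of all 10 members were negative, -0.06 (*P3h1*) to -0.42 (*Lox*), as were those of 50% of genes. These later samples were also part of the contrast that chose the members, so nothing is read from the shared sign. No member passed the threshold by edgeR (0% of 22453 genes did; adjusted p 0.943 to 0.982), 0 were under an unadjusted p of 0.05 (4.99% of genes) and DESeq2 called 0. The batch 1 mice enter both comparisons, with different samples.

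Among NOR mice after 6 weeks of age, the oxidases *Loxl2* and *Lox* and the lysyl hydroxylase *Plod2*, which act in collagen cross-linking, changed with age. Over 10, 14, 18 and 22 weeks, 5 of the 10 members passed the threshold (8.47% of 19604 genes did): *Loxl2*, *Lox*, *Plod2*, *P4ha3* and *P4ha2*. *Loxl2* was at 167, 243, 240, 287 and 166 CPM in mice 1 to 5 at 10 weeks and at 198, 304, 175, 229 and 221 CPM at 14 weeks. It is a gene of chromosome 14 (69609068 to 69695834, GRCm38, plus strand). Its level was 452, 382, 653 and 888 CPM in mice 1, 3, 4 and 5 at 18 weeks and 520, 974, 568.1, 330 and 545 CPM at 22 weeks. All values at the later pair of ages were above all values at the earlier pair, a split made after seeing the data that holds for 1 of 10 members and 0.306% of genes.

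The log2 difference of *Loxl2* between 22 and 10 weeks was 1.43 ± 0.27 (SE), with an adjusted p of 0.00131 over the 4 ages (edgeR). *Lox* was at 302, 456, 442, 515 and 226 CPM at 10 weeks and 531, 727, 644, 559 and 500 CPM at 22 weeks, an overlap of a single pair of values (0.63 ± 0.20, adjusted p = 0.00841 by edgeR). *Plod2* went from 32.8, 37.5, 35.4, 67.5 and 31.9 CPM to 74.8, 111, 67.3, 54.4 and 89.9 CPM (0.98 ± 0.24, adjusted p = 0.0127 by edgeR). *P4ha3* (0.38 ± 0.21, adjusted p = 0.0282) and *P4ha2* (0.25 ± 0.14, adjusted p = 0.0467) passed by edgeR with their low at 14 weeks. *Plod1*, *P3h1*, *P4ha1*, *Serpinh1* and *Pycr1* differed by -0.05 to 0.55 and did not pass (adjusted p 0.0565 to 0.682 by edgeR).

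*Loxl2* passed when any single mouse was left out (adjusted p 0.00299 to 0.0189 by edgeR), but the number of members that passed fell to 1 without mouse 1, to 2 without mouse 2 or 5 and to 3 without mouse 3. It was 6 without the ribosomal RNA-rich library of mouse 5, and with library totals as the scaling it was 0 (*Loxl2* adjusted p = 0.0901 by edgeR). With the mouse as a block it was 4, and *P4ha3* had an adjusted p of 0.0828 by edgeR.

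**Figure D4:**
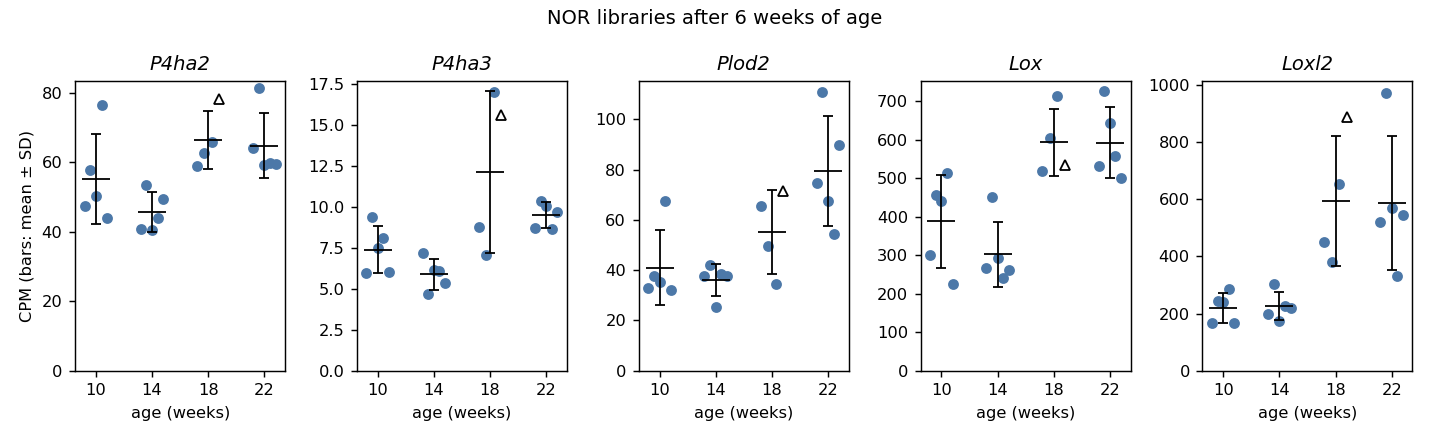
CPM (y axes) of the 5 members past the threshold in NOR libraries by age in weeks, from 10 to 22 (x axes), with mean and SD as bars. The triangle is the ribosomal RNA-rich library of mouse 5 at 18 weeks, and *Loxl2* is at 166 to 304 CPM at 10 and 14 weeks and at 330 to 974 CPM afterwards.

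Of the other pathway genes, 12 passed the F test over the 4 ages in NOR mice, each with a positive difference between 22 and 10 weeks. They were the collagen-secretion regulator *Creb3l1* (1.28), the procollagen proteases *Bmp1* (0.96), *Tll1* (1.56) and *Adamts14* (1.03), the proteinase enhancer *Pcolce2* (3.33), the COPII coat gene *Sec23a* (0.50), the proline genes *Aldh18a1* (0.64), *Arg1* (4.17) and *Pepd* (0.11), and *Col1a1* (0.22), *Col5a1* (0.37) and *Col5a2* (0.43). The differences of *Pepd* (SE 0.11) and *Col1a1* (SE 0.22) between 22 and 10 weeks were about as large as their SE. *Col1a1* had medians of 11138, 10371, 19453 and 11983 CPM at 10, 14, 18 and 22 weeks, highest at 18 weeks. Of 12 hypoxia genes 11 were higher at 22 weeks (median 0.58, against 0.02 for all genes), with sums of 1254 to 2852 CPM at 10 and 14 weeks and 2016 to 3914 CPM at 18 and 22 weeks. Fibroblast markers were higher for 7 of 10 (median 0.34; sums 730 to 1700 CPM and 531 to 2104 CPM) and endothelial markers for 8 of 8 (median 0.92). ATF4 targets, genes of the amino acid stress response, were higher for 9 of 10 (median 0.86; 4 past the threshold, against 1 higher and 1 lower of the hypoxia genes), skeletal muscle markers for 8 of 8 (median 1.79) and erythroid markers for 5 of 6 (median 1.25), the last 2 lists with 0 past the threshold. Without the ribosomal RNA-rich library, 11 of these 12 pathway genes still passed and *Col5a2* had an adjusted p of 0.0705 (edgeR). The part of these lists in the *Loxl2*, *Lox* and *Plod2* changes was not tested.

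Nonprogressors of batch 1 were tested over the same ages. In them 0 of 10 members passed the threshold by edgeR (3.46% of 19153 genes did), 2 were under an unadjusted p of 0.05 (19.2% of genes) and DESeq2 called 1, *Serpinh1*. *Serpinh1* was at 350, 374, 300 and 670 CPM in mice 1 to 4 at 10 weeks and at 176, 189, 281 and 233 CPM at 22 weeks, without overlap (22 minus 10 weeks -0.94 ± 0.25, adjusted p = 0.128 by edgeR). *Loxl2* differed by -0.57 ± 0.51 (95% interval -1.58 to 0.44), and the difference between NOR mice and nonprogressors was not tested. All 10 fibroblast markers were lower at 22 weeks (median -1.71, against -0.00492 for all genes, 3 past the threshold; sums 1367 to 3110 CPM at 10 and 406 to 740 CPM at 22 weeks), and 3 of the 4 samples at 22 weeks are the 7SL-rich ones. Without those libraries 22 weeks is left with mouse 1 alone, which is assumed to vary like the other groups. *Serpinh1* then differed by -1.28 ± 0.43, *Loxl2* by -1.14 ± 0.87 and fibroblast markers by a median of -2.40. With all libraries, scaled by library totals, the count of members past the threshold was 5, where the median of all genes was -0.59.

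Among the other pathway genes, *Crtap* (-0.58), which forms a complex with *P3h1*, the cargo-coat gene *Sec24d* (-0.57), *Pcolce* (-1.16), *Adamts2* (-1.48), *Col6a1* (-1.23), *Col6a2* (-1.16) and *Col6a3* (-1.13) fell in nonprogressors by edgeR, and *Arg1* (5.39) rose. Without the 7SL-rich libraries, which leaves mouse 1 alone at 22 weeks, all 8 kept their sign. The differences were then -0.48 (*Crtap*), -0.44 (*Sec24d*), -1.52 (*Pcolce*), -1.61 (*Adamts2*), -1.65 (*Col6a1*), -1.58 (*Col6a2*), -1.52 (*Col6a3*) and 5.59 (*Arg1*). With a single sample at 22 weeks, that fit cannot show whether the 8 calls depend on those libraries.

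In progressors, the 4 times from 5 weeks before onset to onset were compared with each other. By edgeR with a batch term 0 of 10 passed (0.0395% of 20257 genes, 8 in all), 0 were under an unadjusted p of 0.05 (16.2% of genes), and DESeq2 called 0. Differences between onset and 5 weeks before it ran from -0.34 (*Serpinh1*) to 0.24 (*P4ha1*), with adjusted p from 0.456 to 0.985 by edgeR, and 0 passed within either batch.

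At 7 weeks before onset, sampled in batch 2 only, *P4ha1* was lower than afterwards. It ranged from 141 to 259 CPM (median 155) in 8 samples at 7 weeks before onset and from 126 to 481 CPM (median 265) in 20 samples from 5 weeks before onset to onset, so the groups overlapped. The log2 difference (mean of the 4 later times minus 7 weeks before onset) was 0.64 ± 0.16 (SE; 95% interval 0.33 to 0.96; adjusted p = 0.0194 by edgeR), and 1 of 10 members passed (5.89% of 21157 genes did). At an unadjusted p under 0.05 there were 4 members (20.2% of genes). *Lox* (0.70 ± 0.25, adjusted p = 0.105), *Plod2* (0.57 ± 0.20, adjusted p = 0.0825) and *P4ha2* (0.45 ± 0.19, adjusted p = 0.164) had positive differences that did not pass by edgeR, and *Serpinh1* and *P3h1* were at -0.22 ± 0.15 and -0.02 ± 0.10. Mice 1 to 4 have only this time point in batch 2 and their other samples in batch 1. With the 4 mice whose samples are all in batch 2, *P4ha1* had an adjusted p of 0.0824, with the mouse as a block 0.181, and it did not pass without mouse 6, 7 or 10 (0.0798, 0.0601 and 0.0549), all by edgeR.

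**Figure D5:**
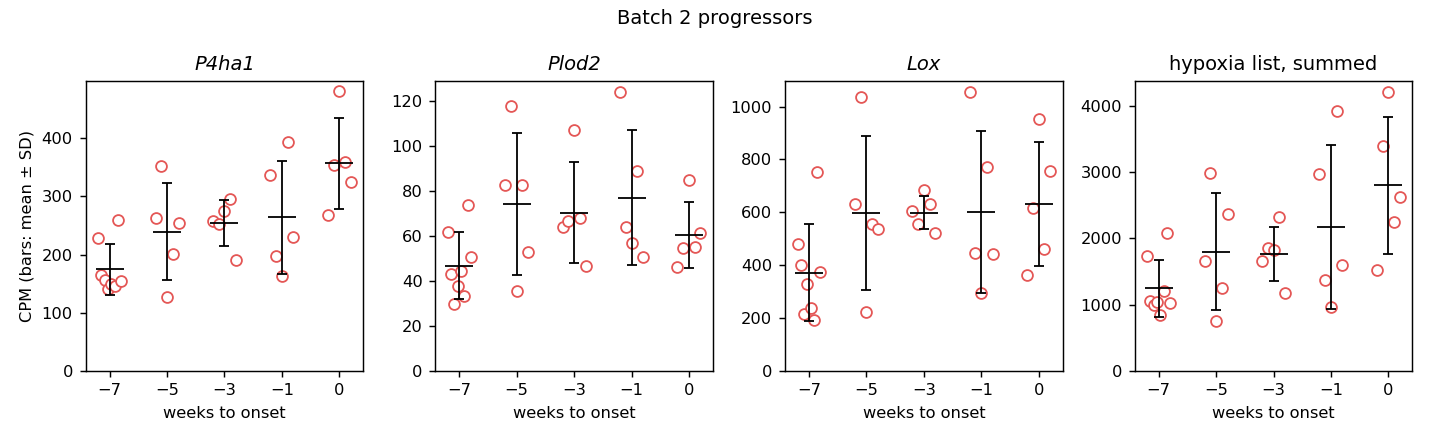
CPM of *P4ha1*, *Plod2* and *Lox* and the summed CPM of the hypoxia list (y axes) in batch 2 progressors from 7 weeks before onset to onset (x axes), with mean and SD as bars. *P4ha1* has a median of 155 CPM at 7 weeks before onset and 265 CPM over the later times, with overlapping values.

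All 12 hypoxia genes had positive differences from 7 weeks before onset (median 0.76, against -0.02 for all genes, 2 past the threshold; sums 839 to 2086 CPM and then 751 to 4206 CPM). All 10 fibroblast markers had negative ones (median -0.53, 5 past the threshold; sums 1526 to 2341 CPM and then 503 to 2341 CPM). Hair follicle markers, at 0.916 to 4.97 CPM in sum at 7 weeks before onset, reached 5863 CPM in a later sample. Among pathway genes, *Arg1* (3.33), *Loxl3* (0.48) and *Plod3* (0.23) rose and *Pcolce2* (-0.77), *P3h2* (-0.79), *Tll1* (-0.64), *Pxdn* (-0.40) and *Aldh4a1* (-0.32) fell by edgeR. Erythroid markers were negative for 7 of 7 (median -1.57, 4 past the threshold), skeletal muscle markers for 8 of 8 (-1.31, 0 past it) and adipocyte markers for 8 of 8 (-0.72, 1 past it). The part of these lists in the *P4ha1* difference was not tested.

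The likeness of genes to the members was measured within each batch, as the correlation of log2 CPM with the mean standardized profile of the 10 members, of which each member is a part, over 74 samples in batch 1 and 46 in batch 2, which share mice, batches and cell makeup. *P4ha2* (0.90 and 0.976 in batches 1 and 2), *Loxl2* (0.865 and 0.974) and *Plod2* (0.849 and 0.961) had the highest values when members are ordered by the less similar batch, while *Plod1* had 0.745 and 0.966. *Pycr1* did least in batch 1 (0.29, against 0.943 in batch 2), and *P4ha1* had 0.60 and 0.719. Of 15910 genes with a mean above 1 CPM, those outside the members with the highest value in the less similar batch were *Septin5* (0.907 and 0.92), *Efemp2* (0.897 and 0.976), *Tmem45a* (0.875 and 0.969), *Lpp* (0.866 and 0.856) and *Tgfb1i1* (0.848 and 0.85).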

How the data were processed

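RNA of biopsied scaffolds was depleted of ribosomal RNA and sequenced on different NovaSeq instruments in batches 1 and 2. The authors deposited expected counts of genes, unnormalized whole numbers, 1 table per batch (55492 and 55491 rows, 55487 genes in both, 41759 with a count). The submitters' processing notes name cutadapt, FastQC, STAR, RSEM, MultiQC and the build GRCm38. Whether reads were counted by strand is not given in the sources used here. *Loxl2* and its antisense gene *Gm27177* share 74219 bases, and *Lox* and *AC161119.1* share 1207, introns included. The overlap of their exons was not computed, so how many reads could belong to either gene of a pair is not known. RSEM shares reads between similar genes, so levels of genes with near-identical copies are estimates. All columns of samples were used.

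Totals per sample were 4722396 to 56185434 counts, and sampling noise is small for all members but *P4ha3* and *Pycr1*. Counts were filtered (filterByExpr), scaled (TMM; factors 0.119 to 1.27) and tested with edgeR 4.0.16 quasi-likelihood models in R 4.3.3 over all genes, with a Benjamini-Hochberg adjusted p under 0.05 as the threshold. For NOR against NOD mice and for the arms after 6 weeks, samples of a mouse were summed to 1 library. Models that span batches held a batch term. Ages were tested together by an F test, with the last minus the first as the size. Alternatives were DESeq2 1.42.0, other scalings, no filter, the mouse as a block and leaving out mice. Leaving out 4 libraries rich in 7SL RNA was chosen after seeing the data. Log2 CPM used a prior count of 2. The tests were tested on simulated data. Python 3.11.15, pandas 2.3.3 and matplotlib 3.10.9 made tables and figures. Coordinates came from GENCODE M21 (GRCm38; 10 of 10 members matched).

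Sample labels number the mice, which gives the pairing. After subtraction of group means, biopsies that came from one animal had mean correlations of -0.000481 in NOR mice, 0.011 in nonprogressors and -0.0102 in progressors over 2000 genes. No pair of 239 replicates was as alike as sampling noise allows (lowest chi-square per degree of freedom 11.97). Samples from the same mouse are treated as independent in the fits over ages or times to onset without the block. The p-values of those fits take biopsies, not mice, as replicates and also reflect the spread within mice. The members and all gene lists were chosen with earlier results of these data known. Named genes were the members, genes of the pathway lists that passed a threshold or had the 3 largest mean differences at 6 weeks in each direction, and the 5 genes most like the members.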

Additional observations from a re-analysis of the deposited data

Results flagged for a closer look

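A sample stood apart from the others of its group (Dixon's 95% critical values) in 24 of 230 sets of a gene and a group of 4 to 8 samples, where about 1 in 20 is flagged by chance. In NOR mice these were *P3h1* in mouse 2 (67.2 CPM, highest) and *Plod2* in mouse 4 (67.5 CPM, highest) at 10 weeks, *Plod2* in mouse 3 at 14 weeks (25.4 CPM, lowest), and *Pycr1* at 0 CPM in the ribosomal RNA-rich library of mouse 5 at 18 weeks. At 22 weeks they were *P4ha2* (81.3 CPM) and *Plod1* (208 CPM), highest in mouse 2, and *Serpinh1* (271 CPM), lowest in mouse 4. At 6 weeks, *P4ha2* (102 CPM) and *Plod1* (206 CPM) were highest in NOR mouse 4.

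In batch 1 nonprogressors, mouse 2 at 14 weeks was lowest for *P4ha2* (30.6 CPM), *Plod1* (87.2 CPM) and *Lox* (356 CPM), and mouse 3 at 18 weeks was lowest for *Loxl2* (221 CPM). In batch 2, nonprogressor mouse 5 at 14 weeks was highest for *P4ha1* (338 CPM) and *P4ha2* (70.9 CPM), and mouse 9 at 6 weeks was highest for *Plod1* (221 CPM). In batch 1 progressors, mouse 3 at onset was highest for *P4ha1* (344 CPM), and the 7SL-rich library of mouse 4 at 3 weeks before onset was lowest for *Serpinh1* (165 CPM) and *Pycr1* (4.87 CPM). Progressor mouse 8 of batch 2 was highest for *P3h1* (40.8 CPM) and *Plod1* (144 CPM) at onset and for *P4ha2* (61.4 CPM) and *P4ha3* (12.7 CPM) at 3 weeks before onset, and lowest for *P4ha2* (19.5 CPM) at 5 weeks before onset.

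*P4ha1* at 6 weeks was below the mean of the later samples in all 4 batch 1 nonprogressors (median log2 difference -0.306) and above it in all 5 batch 2 progressors (median 0.426). The difference between these sets was not tested.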

How the results depend on the processing

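Of the counts of members under alternatives, 135 stayed within 1.5 times the reported count and 19 did not. Of single member values, 745 kept direction and side of the threshold, 27 lost a call, 10 gained one and 1 reversed. The count for NOR against NOD mice went from 1 to 0 with 6-week samples only. For NOR ages it went from 5 to 0 with library totals, where the median of all genes was -0.04, and to 1 to 4 without 1 mouse. For nonprogressor ages it went from 0 to 1 with DESeq2 and to 5 with library totals. For 7 weeks before onset it went from 1 to 3 with DESeq2, to 0 with the 4 mice that have all samples in batch 2, to 0 with the mouse as a replicate block, and to 0 to 3 without 1 mouse (3 without mouse 8). The block changed no other count by over 1.5 times. Members higher by 1.5-fold at 6 weeks in batch 1 nonprogressors went from 1 to 2 with library totals (all-gene median 0.27) and to 0 to 1 without 1 mouse (0 without mouse 1), and in batch 1 progressors from 4 to 4 to 7 (7 without mouse 3 or 5). *P4ha3* in progressors against nonprogressors at 6 weeks reversed to -0.0011 with library totals. Without the 4 libraries rich in 7SL RNA, counts of members that they enter kept their value, leaving aside nonprogressor ages, where 22 weeks kept 1 sample. The 8 pathway genes called over those ages kept their sign in that fit, which cannot show whether their calls depend on those libraries. Apart from these constructions, the cause was not tested. Depth limits *Pycr1* in the smallest libraries, and NOR mice were sequenced in 1 batch only, so their smaller 6-week differences were not measured against batch 2 conditions.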

Other observations

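The 6 batch 1 nonprogressor samples labelled only by days after implantation (31, 38 and 108 days, mice 1 and 2 each) had low levels of most members. All 6 were below the median of the 20 age-labelled batch 1 nonprogressor samples for *P3h1*, *P4ha1*, *P4ha2*, *Plod1*, *Plod2*, *Lox* and *Loxl2*. The share of all genes that lay as low in these 6 samples was not computed, so whether the members stand out is not known. *P4ha1*, the most abundant 4-hydroxylase transcript, was at 96.2 to 159 CPM (median 125) against 129 to 341 CPM (median 204), with 4 of the 6 samples below that range. *Loxl2* was at 122 to 189 CPM (median 172) against 183 to 1052 CPM (median 418), with 4 of 6 below the range, and *P4ha2* had 3, *Lox* 2 and *Plod2* 1 below it. *Serpinh1* was not low, at 281 to 437 CPM (median 340) against a median of 337 CPM, with 3 of 6 below. Summed hypoxia genes were 688 to 1427 CPM in these samples and 1109 to 4816 CPM in the others, and fibroblast markers 1425 to 1736 CPM and 406 to 3110 CPM.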
